A study of Mus musculus with 4 samples.

Results

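Junctional adhesion molecules and nectins are immunoglobulin-type proteins of the cell surface that join neighboring cells. Described here are 8 of the 32285 genes counted: F11r, Jam2 and Jam3, which encode the junctional adhesion molecules A, B and C, their relative Esam, the nectin genes Nectin1, Nectin2 and Nectin3, and Pecam1, which encodes the platelet and endothelial adhesion molecule. The 8 genes were found by their symbols in each count matrix. Unique molecular identifiers (UMIs, which mark each captured transcript so that it is counted once) were summed per library and cell class, in arteries, veins, lymphatics, epithelium and immune cells.

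Single cells came from the left lung lobe of wild-type male C57BL/6 mice, in 4 libraries that each pooled 3 mice. Young mice were 2 to 3 months old and aged mice 22 months old, and per the labels the mice were fed a restricted diet. At each age, the nonventilated library came from naive mice. The ventilated library came from mice ventilated for 3 hours at a high tidal volume, without end-expiratory pressure and on pure oxygen, under ketamine, medetomidine and buprenorphine. A difference between ventilated and nonventilated libraries therefore includes anesthesia, analgesia, arterial and venous lines, infused fluid, the endotracheal tube and oxygen. Each group was 1 pooled library of cells that had been frozen and thawed, so mice could not be compared with each other and no test between groups was possible.

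Of 15428 barcodes, 9514 cells were kept, with 1960 to 2750 per library and median depths of 7236.5 to 8370.5 UMIs per cell. Kept cells of different libraries shared 8 of 9506 barcodes. Clusters were named from marker genes, and the 8 genes were kept out of the clustering. Named classes with at least 50 cells numbered 21, of which 14 lay beyond the capillaries. These included 91 arterial, 201 venous and 124 lymphatic endothelial cells, 388 alveolar type I and 69 alveolar type II cells. All 8 lymphatic and all 9 venous markers were detected in their clusters. The arterial cluster had 8 of its 9 markers detected, but its leading genes by fold were Stk32a, Cytl1 and Cdh13 and none of the 9, so its name is less firm.

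Junctional adhesion molecule A seals tight junctions of epithelium and endothelium and binds the leukocyte integrin that contains the product of Itgal. Junctional adhesion molecules B and C bind each other and integrins of leukocytes, and help leukocytes cross vessel walls. Nectins join cells at adherens junctions, often as pairs of unlike nectins, and are tied to actin by afadin, the product of Afdn. Nectin2 is also read by receptors of T and natural killer cells. Pecam1 binds itself between endothelial cells and is carried by monocytes, platelets and some lymphocytes as well.

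In the mm10 build, F11r lies at chr1:171437535-171464603 on the forward strand, Jam2 at chr16:84774123-84825928 on the forward strand and Jam3 at chr9:27097384-27155421 on the reverse strand. Esam at chr9:37528078-37538319 and Nectin1 at chr9:43743984-43807461 lie on the forward strand. Nectin2 at chr7:19716644-19750483, Nectin3 at chr16:46387706-46498525 and Pecam1 at chr11:106654217-106750628 lie on the reverse strand. All 8 are annotated as protein coding, and 0 genes on the same strand share exon sequence with them. RefSeq promoter windows of 300 bases (build GRCm38.p6, 250 bases before and 50 after the start) matched 3 of the 8 genes. Those of Nectin2 and Nectin3, on which several class and ventilation results turn, are shown, 5′ to 3′ on the gene's strand, with matches of the GC box GGGCGG and the ETS core CCGGAA on either strand in capitals. The Nectin2 window is chr7:19749524-19749823 and the Nectin3 window chr16:46496918-46497217, both on the reverse strand.
Nectin2: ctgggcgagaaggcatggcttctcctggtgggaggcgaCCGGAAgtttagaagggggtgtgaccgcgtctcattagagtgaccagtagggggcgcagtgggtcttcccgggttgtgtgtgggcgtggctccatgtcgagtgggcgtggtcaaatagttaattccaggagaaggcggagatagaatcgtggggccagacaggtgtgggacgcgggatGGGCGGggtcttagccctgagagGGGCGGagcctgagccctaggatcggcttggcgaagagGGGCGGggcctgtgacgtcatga
Nectin3: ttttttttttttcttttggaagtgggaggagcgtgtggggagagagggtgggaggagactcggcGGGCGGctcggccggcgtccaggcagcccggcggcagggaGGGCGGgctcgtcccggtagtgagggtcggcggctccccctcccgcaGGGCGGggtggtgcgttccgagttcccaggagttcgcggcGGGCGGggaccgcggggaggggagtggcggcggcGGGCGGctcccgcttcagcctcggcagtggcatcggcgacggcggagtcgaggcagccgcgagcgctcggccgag
The Nectin3 window held 5 GC boxes and 73.7% G and C, and the Nectin2 window held 3 GC boxes, 1 ETS core and 62.7% G and C. The F11r window (chr1:171437311-171437610, forward strand) held 1 GC box and no ETS core. None of the 3 windows held the TATA box letters TATAAA or the E-box letters CACGTG. Among 32851 promoter windows of the same length, 35.7% held a GC box, 14.9% an ETS core, 13.6% a TATA box and 7.15% an E-box. These matches describe the letters only.

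Levels are given in CPM, the UMIs of a gene in 1000000 UMIs of a class in a library, in the order young nonventilated, young ventilated, aged nonventilated, aged ventilated. The 14 classes beyond the capillaries summed to 32718 to 3025354 UMIs per library. The 95% intervals were exact, by Poisson limits for a level, a conditional binomial for a ratio and Clopper-Pearson limits for a share. They cover counting error only, neither differences between mice nor the weight of single cells. Where a class was compared with another in the same libraries, a 2-sided exact sign-flip permutation test over the 4 libraries was used, which cannot go below p = 0.125. A class difference is therefore described by its size and by how many libraries showed it.

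**Figure D1:**
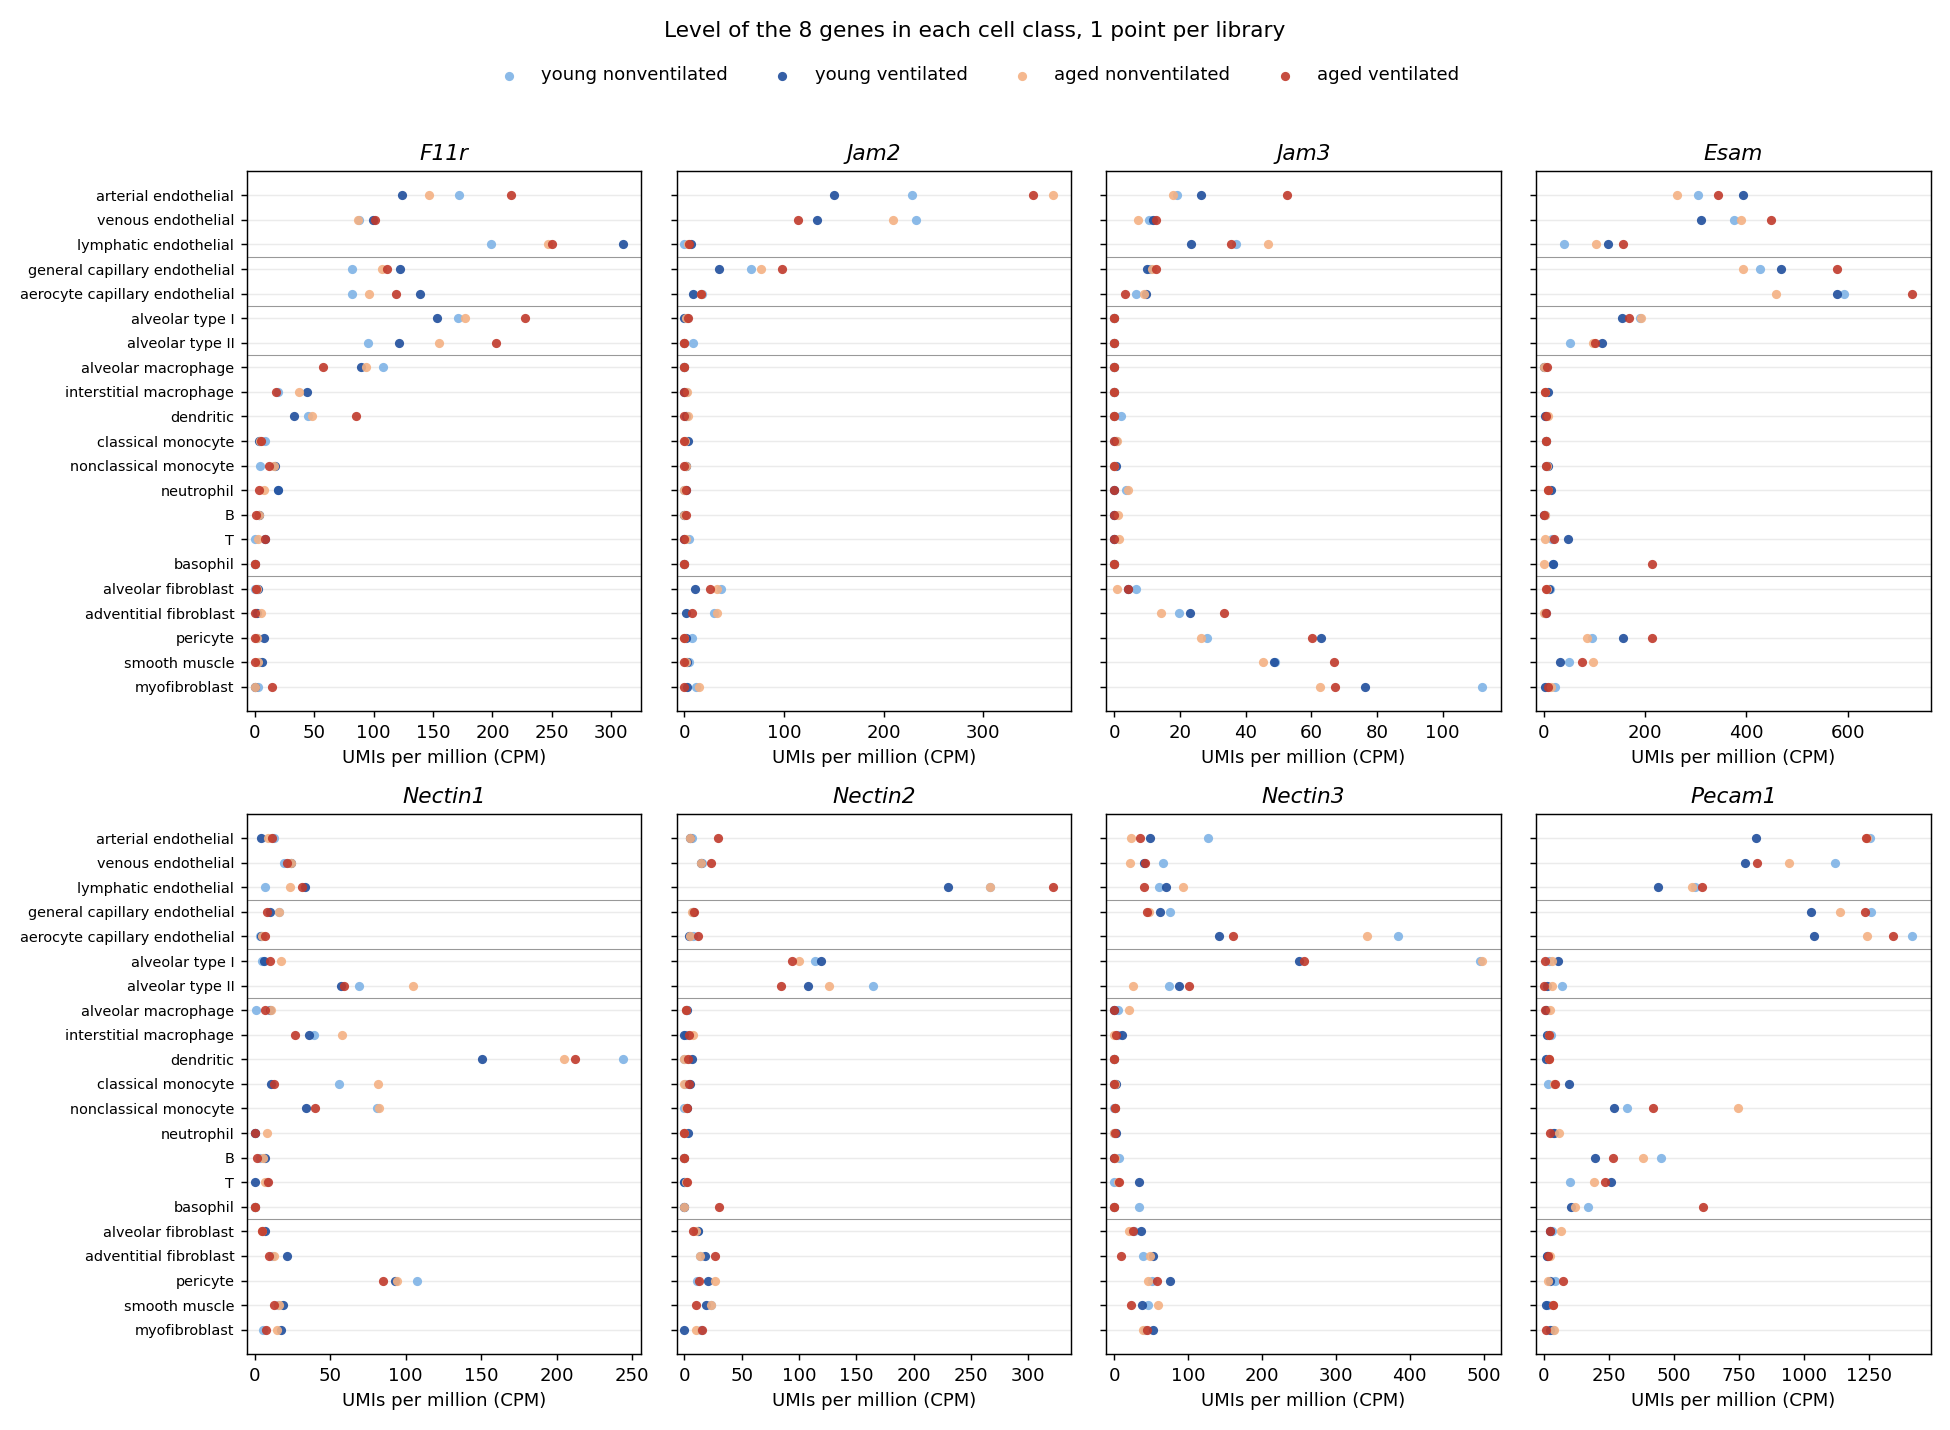
Level of each of the 8 genes (x axis, CPM, on a scale of its own in each panel) in 21 cell classes (y axis), with 1 point per library. Nectin2 was highest in lymphatic endothelial cells, with 229.8 to 321 CPM, Nectin3 in alveolar type I cells and aerocyte capillaries, and Nectin1 in dendritic cells, while Pecam1 was at least 194.7 CPM in every library of the endothelial classes, nonclassical monocytes and B cells.

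F11r was expressed across vessels, epithelium and alveolar macrophages. Lymphatic endothelial cells held 199, 309.8, 247 and 249.8 CPM, the highest mean of any class (251 CPM). That was 2.38 times the level of general capillary cells, while venous cells held 0.373 times the lymphatic level, and lymphatic cells were higher in 4 of 4 libraries in both contrasts (exact permutation p = 0.125 each). Alveolar type I cells held 171, 153, 177 and 227 CPM, which exceeded type II cells (95.3, 121, 155 and 203 CPM) in 4 of 4 libraries by 1.27-fold in the mean. Arterial cells held 172, 124, 147 and 216 CPM and venous cells 87.4, 99.7, 86.7 and 101 CPM. Arterial cells were thus higher in 4 of 4 libraries, although 1 cell carried 33.3% of the F11r UMIs of the young nonventilated arterial cells. Ranges over libraries overlapped between each of the 7 highest classes and the next, so this order is not sharp. Alveolar macrophages, which line the air space, held 108, 89.5, 93.8 and 57.2 CPM. They exceeded interstitial macrophages (19.7, 44.0, 37.7 and 18.3 CPM) 2.91-fold, in 4 of 4 libraries.

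Jam2 separated arteries, veins and general capillaries from lymphatics. Arterial cells held 229, 150.4, 369.8 and 350.1 CPM and venous cells 233, 133, 209.6 and 114 CPM. In lymphatic cells, 4 Jam2 UMIs were counted in 124 cells, against 213 in 91 arterial and 339 in 201 venous cells. The young nonventilated lymphatic cells held 0 UMIs, where 3 UMIs would have made 10.1 CPM. Arterial cells exceeded general capillary cells 3.98-fold and aerocytes (the capillary cells of the gas exchange surface) 18.6-fold, in 4 of 4 libraries each. The aerocyte mean was 14.8 CPM and the lymphatic mean 3.61 CPM. These classes stood at 8.17 and 6.66 CPM in the young ventilated library, so aerocytes were not clearly apart from lymphatic cells. Between arteries and veins, the arterial level was higher in 3 of the 4 libraries and the 2 ranges overlapped. Single arterial cells carried 27.8% and 29.4% of the Jam2 UMIs in the young nonventilated and young ventilated libraries. With each cell thinned to 1000 UMIs, a Jam2 UMI was found in 25.3% of arterial cells (95% interval 16.7 to 35.5%) and 19.4% of venous cells (14.2 to 25.6%). The unthinned shares were 65.9% and 59.2% at median depths of 7512 and 9182 UMIs. In alveolar macrophages, which should lack the gene, 0 of 270 cells held a UMI at a median depth of 17108.5 UMIs.

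Jam3 was low beyond the capillaries. Lymphatic endothelial cells held 37.1, 23.3, 46.7 and 35.7 CPM from 40 UMIs, and arterial cells 19.1, 26.5, 17.8 and 52.5 CPM from 22 UMIs. Without the highest cell of each library, the arterial mean was 8.27 CPM. Neither class stood above the other, since each was higher in 2 of 4 libraries. The highest levels were in stromal classes, with 112, 76.4, 62.8 and 67.3 CPM in myofibroblasts and 49.0, 48.5, 45.4 and 66.9 CPM in smooth muscle. Stromal classes gave 58.2% of all Jam3 UMIs in kept cells. In alveolar type I and type II cells, 0 Jam3 UMIs were counted in each library. In type I cells, 3 UMIs would have made 4.47 to 10.0 CPM per library. Lymphatic endothelial cells thus held transcripts of Jam3, while its binding partner Jam2 was close to the counting limit there.

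Esam, a tight junction protein of endothelium and platelets, was mainly capillary, with 81.9% of its UMIs from the 2 capillary classes. Venous cells held 376, 311, 390.3 and 449 CPM and arterial cells 305, 394, 263 and 344 CPM. Both were below aerocytes (592, 579, 458 and 727 CPM) in 4 of 4 libraries. Lymphatic endothelial cells held 40.5, 127, 103 and 156 CPM, 3.58-fold below veins in the mean and lower in 4 of 4 libraries. In lymphatics a few cells carried the gene, since 25.0% of the cells held a UMI and 1 of the 23 aged ventilated cells carried 51.4% of the UMIs of its library. The levels without the highest cell of each library were 31.6, 95.5, 80.2 and 79.6 CPM. Barcodes with UMIs of both Cdh5 and an epithelial or immune marker made up 14.5% of the lymphatic class, the largest share among the 21 classes. Without these barcodes the mean lymphatic Esam level was 47.8 CPM instead of 107 CPM, and it was 45.6 CPM at doubled cluster resolution, 45.2 CPM with a stricter mitochondrial limit and 54.4 CPM without the upper limits on genes and UMIs. The lymphatic level is therefore not firm, while its place below the veins held in each of these settings. Alveolar type I cells held 189, 155, 192 and 167 CPM, which was 1.92-fold above type II cells and higher in 4 of 4 libraries.

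Nectin1 was found in part of the immune classes, which together gave 61.6% of its UMIs. That share was 46.2% in the young ventilated and 70.8% in the aged nonventilated library, and it depends on the cells recovered. Neutrophils, basophils, B cells and T cells held 2, 0, 11 and 11 Nectin1 UMIs over the 4 libraries. Dendritic cells held 244, 150.3, 205 and 212 CPM, and their range did not overlap that of any other class. Pericytes came next with 108, 92.7, 94.5 and 85.2 CPM, followed by alveolar type II cells with 69.3, 57.3, 105 and 59.3 CPM. Type I cells held 0.131 times the type II level and were lower in 4 of 4 libraries. Venous cells held 19.2 to 24.1 CPM and lymphatic cells 6.75 to 33.3 CPM. Among leukocytes other than dendritic cells, nonclassical monocytes, classical monocytes and interstitial macrophages had mean levels of 59.3, 40.3 and 39.98 CPM.

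Nectin2 marked lymphatics and alveolar epithelium. Lymphatic endothelial cells held 267, 229.8, 267 and 321 CPM, from 69 to 80 UMIs per library. Venous cells held 15.7, 14.2, 14.5 and 23.5 CPM, and the mean level of general capillary cells was 7.39 CPM. Lymphatic cells exceeded general capillary cells 36.7-fold and aerocytes 38.7-fold, and veins held 0.0627 times the lymphatic level. Each difference was seen in 4 of 4 libraries (exact permutation p = 0.125), and ranges did not overlap. No lymphatic cell carried more than 12.7% of the Nectin2 UMIs of its library. A UMI was found in 25.8% of lymphatic cells (18.4 to 34.4%) at 1000 UMIs per cell and in 79.8% without thinning, against 0 and 2.59% of alveolar macrophages. Alveolar type II cells held 164, 108, 127 and 84.7 CPM and type I cells 114, 119, 99.6 and 93.6 CPM, with each type higher in 2 of 4 libraries. With each cell of at least 1000 UMIs thinned to that depth, the means were 74.5 and 69.5 CPM. Next in order among the 21 classes came smooth muscle, with a mean of 18.9 CPM. Clusters too small for a class held more, with the libraries summed. Nectin2 stood at 91.8 CPM in 27 mesothelial cells (35 UMIs) and 82.8 CPM in 16 ciliated airway cells (15 UMIs).

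Nectin3 was high in the 2 cell types that form the gas exchange surface. Alveolar type I cells held 494, 250.2, 498 and 258 CPM and aerocytes 384, 141, 342 and 161 CPM, and type I cells were higher in 4 of 4 libraries. Type I cells exceeded type II cells 5.21-fold and general capillary cells 6.56-fold, and general capillary cells held 0.222 times the aerocyte level, in 4 of 4 libraries each. Thinning to 1000 UMIs per cell left out shallower cells, which kept 269 of 388 type I cells and 550 of 676 aerocytes. Of these, 27.1% of type I cells (21.9 to 32.9%) and 21.3% of aerocytes (17.9 to 24.9%) held a UMI, against 1.11% of alveolar macrophages. In lymphatic, arterial and venous cells, the means were 66.1, 58.3 and 42.5 CPM with overlapping ranges. The arterial mean rested on the young nonventilated library (127 CPM from 20 UMIs, 35.0% of them from 1 cell), since the other libraries held 22.3 to 48.7 CPM. Dendritic cells, the class with the most Nectin1, held 0 Nectin3 UMIs in each library.

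Pecam1 was high in all endothelium. Arterial cells held 1253, 814, 1243 and 1237 CPM, venous cells 1119, 774, 942 and 818 CPM and lymphatic cells 580.1, 439.7, 570.4 and 607 CPM. Lymphatic cells were lower than arterial cells 2.07-fold and lower than venous cells 1.66-fold, in 4 of 4 libraries each. Outside the endothelium, nonclassical monocytes, which patrol the vessel wall, held 319, 268, 744 and 421 CPM. B cells held 449, 195, 381 and 266 CPM and T cells 102, 256, 191 and 234 CPM. Classical monocytes held 17.2, 96.2, 36.97 and 41.7 CPM, so nonclassical monocytes were 9.12-fold higher in the mean and higher in 4 of 4 libraries. In basophils, the aged ventilated level of 611 CPM came from 6 cells, 1 of which carried 95% of the UMIs. Without the highest cell of each library, basophils held 58.6 to 111 CPM.

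Endothelial RNA outside endothelial cells was measured with Cdh5, which encodes the cadherin of endothelial junctions. For each gene, the UMIs that a class would receive were computed from its Cdh5 UMIs and the ratio of that gene to Cdh5 over the endothelial classes. Nonclassical monocytes held 3971 Pecam1 UMIs against 123 brought by Cdh5, which is 32.4 times as many, and B cells held 34.8 times as many. The same ratio was 6.23 in T cells, 7.56 in classical monocytes and 2.92 in basophils. Pecam1 in neutrophils (1.25), alveolar type I cells (1.17), alveolar type II cells (1.44) and pericytes (0.798) was near the amount that came with Cdh5. Expression by these cells could not be told apart from endothelial RNA there, so it is not read either way. For Esam the ratio was 15.99 in alveolar type I and 12.7 in alveolar type II cells, but 0.912 in nonclassical monocytes and 1.08 in T cells. Nectin3 in alveolar type I cells stood at 165 times, Nectin2 in type II cells at 359 times and Nectin1 in dendritic cells at 3002 times the amount brought by Cdh5.

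**Figure D2:**
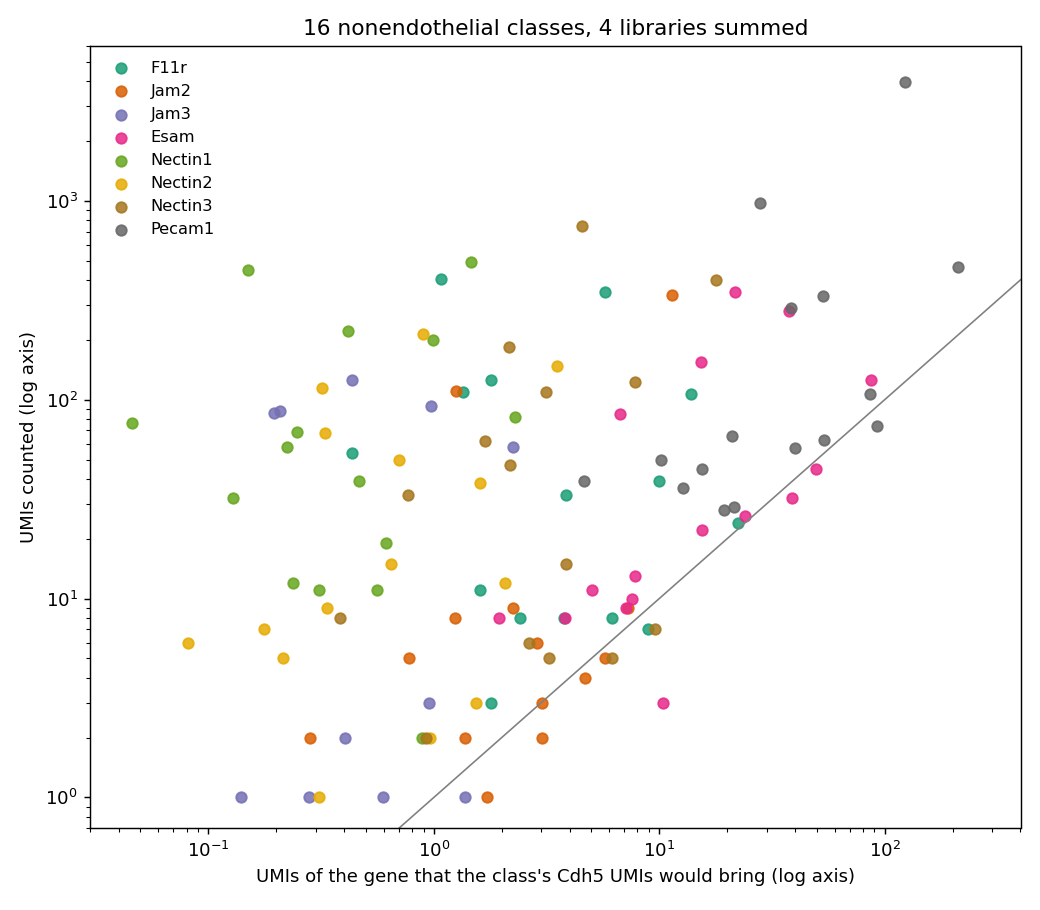
UMIs counted for each of the 8 genes in 16 nonendothelial classes (y axis, log scale, 4 libraries summed) against the UMIs that the Cdh5 UMIs of the class would bring (x axis, log scale), with 1 point per gene and class and the line of equality. Of 117 points, 63 lie above 5 times the line, while Esam in nonclassical monocytes and Pecam1 in pericytes lie just below it, and 11 pairs without a UMI are not drawn.

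To see whether the genes differed after ventilation, a gene and class were compared where the 2 libraries together held at least 100 UMIs, and a CPM ratio of at least 1.5 in either direction was counted. In the young mice, 18 of 112 pairs of gene and class beyond the capillaries had enough UMIs. Of these, 8 were past the fold, with 2 higher and 6 lower after ventilation. Over all genes in the same classes, 37.3% of the pairs were past the fold, 17.5% higher and 19.7% lower. In the aged mice, 6 of 20 pairs were past the fold and all 6 were lower, beside 30.1% of all genes in either direction, 12.4% higher and 17.7% lower. The median log2 ratio of the pairs was -0.28 in the young and -0.04 in the aged mice, beside -0.03 and -0.07 over all genes. The genes as a group are therefore described member by member.

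Nectin3 in alveolar type I cells was lower after ventilation at both ages. The ratio of ventilated to nonventilated was 0.506 (95% interval 0.411 to 0.622) in the young and 0.517 (0.396 to 0.667) in the aged mice. Both ventilated libraries lay below both nonventilated libraries, and the counting intervals of the levels did not overlap. In aerocytes, the ratio was 0.369 (0.309 to 0.438) in the young and 0.470 (0.383 to 0.574) in the aged mice. Aerocytes too were held by different clusters, with 149, 0, 85 and 9 cells of the 4 libraries in a cluster led by Lmntd1 and 0, 123, 0 and 74 in a cluster led by Sox9. In a shallow aerocyte cluster with cells of each library, Nectin3 stood at 271, 117, 313 and 185 CPM from 7 to 24 UMIs each. The summed aerocyte markers were 7749, 3827, 7001 and 4730 CPM, and their part in the Nectin3 difference was not tested. General capillary cells, with ratios of 0.830 and 0.961, were not past the fold at either age. The type I class was held by different clusters, since a cluster led by Rtkn2 held 23, 0, 31 and 2 cells of the 4 libraries and a cluster led by Itgb6 and Cgn held 4, 42, 2 and 18. Both held all 8 type I markers. The summed type I markers were 30026, 21667, 27155 and 24866 CPM and the general epithelial markers 2811, 6250.2, 2879 and 4498 CPM, and their part in the Nectin3 difference was not tested. Nectin3 stood at 586 and 536 CPM in the nonventilated cells of the Rtkn2 cluster and at 255 and 300.2 CPM in the ventilated cells of the Itgb6 cluster. In 2 shallow clusters that held cells of each library, the young libraries differed less, with 160.3 against 129 CPM and 292 against 264 CPM from 4 to 25 UMIs each. The aged libraries held 518 against 130.3 CPM and 316 against 103 CPM there. In the same type I cells, Afdn, the cytoplasmic partner of nectins, was higher after ventilation at both ages (242, 393, 297 and 488 CPM), as was Cgn, a tight junction scaffold (171, 438, 191 and 314 CPM). Of 12 cytoplasmic partner genes, 11 had enough UMIs and 2 were higher and 0 lower at each age, beside 18.3% of all genes higher in the young and 14.6% in the aged type I cells. Tjp1 did not pass the fold, at 478, 469, 470.2 and 528 CPM.

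Jam2 in venous endothelial cells was lower after ventilation at both ages, with ratios of 0.571 (0.410 to 0.786) and 0.544 (0.387 to 0.761). Without upper limits on genes and UMIs per cell, the log2 ratios were -0.57 and -0.54, short of the fold. The ventilated libraries at 133 and 114 CPM lay below the nonventilated libraries at 233 and 209.6 CPM. In the same cells, the summed level of 8 general endothelial markers was 7050 and 7358 CPM in the nonventilated and 3569 and 4504 CPM in the ventilated libraries. The part of this shift in the Jam2 difference was not tested. Esam in veins had ratios of 0.827 (0.660 to 1.03) and 1.15 (0.9399 to 1.41), and F11r held 86.7 to 101 CPM in all 4 libraries. Pecam1 in veins held 1119, 774, 942 and 818 CPM. Of 10 Pecam1 partner genes, 4 had enough UMIs in veins, and 2 were lower and 0 higher at each age, beside 21.6% of all venous genes lower in the young and 16.9% in the aged mice. These were Jup, a cytoplasmic link of cadherins (262, 54.6, 260.2 and 90.5 CPM), and the growth factor receptor gene Kdr (278, 152, 243 and 159 CPM). Of 7 nectin ligand and receptor genes, 1 had enough UMIs, the nectin-like gene Pvr, and it was higher at both ages (99.7, 320.4, 173 and 319 CPM), beside 22.4% and 18.3% of all venous genes. In arteries, Jam2 held 36, 34, 83 and 60 UMIs, and its aged ventilated to nonventilated ratio was 0.947 (0.668 to 1.34).

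In lymphatic endothelial cells, F11r was higher in the young ventilated than the young nonventilated library (ratio 1.56, 1.11 to 2.20), while the aged ratio was 1.01 (0.702 to 1.45). With each cell thinned to 1000 UMIs, the young log2 ratio was -0.17. At that depth 21.8% of the 124 lymphatic cells of the 4 libraries held an F11r UMI, so few UMIs stood behind this value. Nectin2 was not past the fold at either age, with ratios of 0.863 (0.615 to 1.21) and 1.20 (0.863 to 1.68). Esam held 50 UMIs over the young libraries, too few for the count, and its young ratio was 3.13 (1.60 to 6.57). The summed immune markers in lymphatic cells ranged from 133 CPM in the young ventilated to 801 CPM in the aged nonventilated library.

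Nectin1 was lower after ventilation in monocytes. In nonclassical monocytes, the libraries held 81.0, 33.9, 82.6 and 39.8 CPM, with ratios of 0.419 (0.296 to 0.586) and 0.481 (0.370 to 0.620). In classical monocytes, they held 55.8, 10.97, 82.0 and 12.5 CPM. The aged ratio there was 0.153 (0.0906 to 0.246), and the young ratio of 0.196 (0.109 to 0.334) came from 98 UMIs, just under the minimum. Both ventilated libraries lay below both nonventilated libraries in each monocyte class. Different clusters held most of these classes, since a cluster led by Ccdc192 and Eno3 held 141, 2, 311 and 12 cells of the 4 libraries and a cluster led by Spic and Ly6i held 1, 177, 27 and 178. In the Spic cluster, the 27 aged nonventilated cells held 30.3 CPM from 8 UMIs, and the 178 aged ventilated cells held 41.9 CPM. For classical monocytes, a cluster led by Ccr2 held 94, 0, 83 and 1 cells, and a cluster led by Fcgr1 held 0, 83, 0 and 94. Afdn, a single gene of the cytoplasmic partner list, held 63.7, 27.6, 57.5 and 25.7 CPM in nonclassical monocytes. The median log2 ratio over all genes of that class was -0.11 in the young and -0.13 in the aged mice. A link between Afdn and Nectin1 was not tested. In dendritic cells, Nectin1 had a ratio of 0.616 (0.467 to 0.811) in the young and 1.04 (0.766 to 1.38) in the aged mice.

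**Figure D3:**
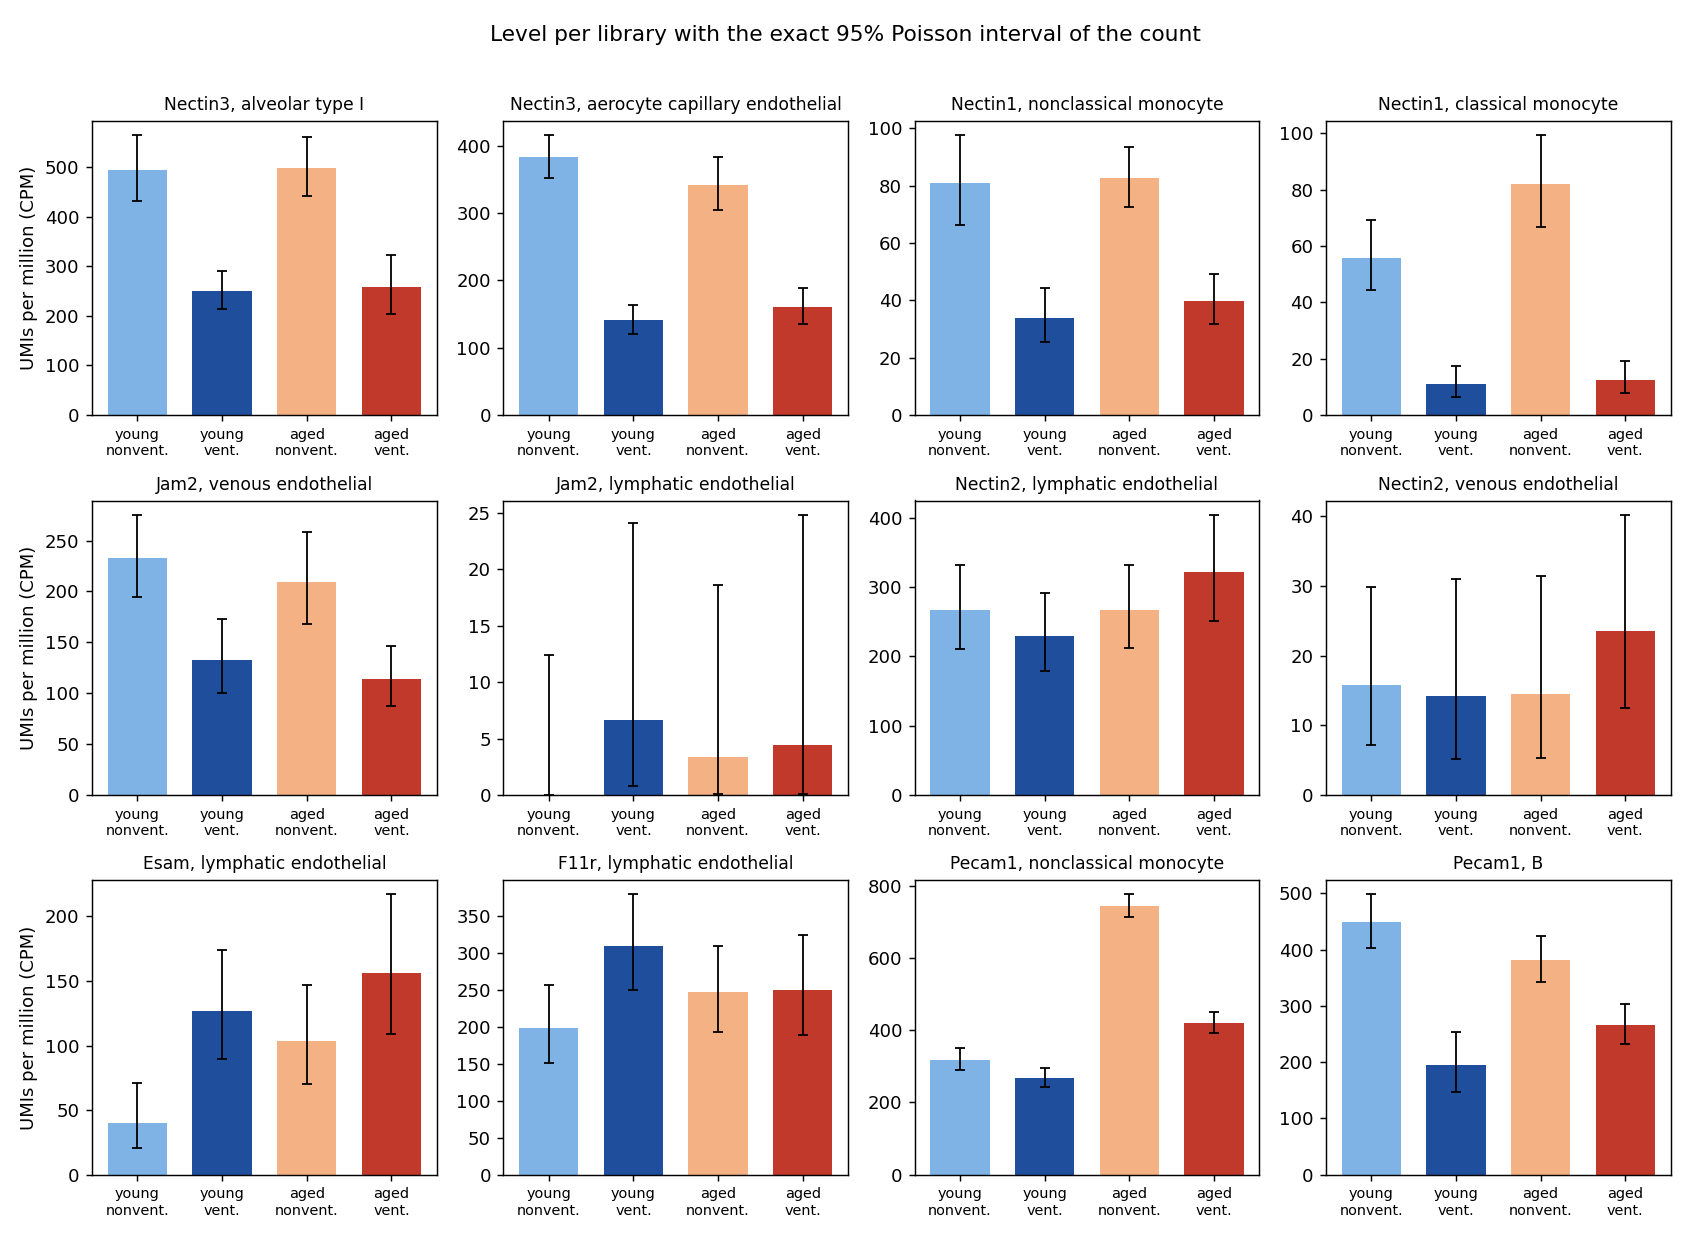
Level in CPM (y axis, starting at 0 and on a scale of its own in each panel) of 12 gene and class pairs in the 4 libraries (x axis), with the exact 95% Poisson interval of each count as error bars. Nectin3 in alveolar type I cells and aerocytes, Nectin1 in both monocyte classes and Jam2 in venous cells stand lower in both ventilated libraries, whereas Nectin2 in lymphatic cells stands near its mean of 271 CPM in all 4.

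Pecam1 differed by class after ventilation. In arteries the young ratio was 0.650 (0.528 to 0.798) and the aged ratio 0.995 (0.829 to 1.19). The young ventilated library was the low one in arteries, veins and lymphatics alike. Venous ratios were 0.691 (0.603 to 0.791) and 0.869 (0.757 to 0.997), and lymphatic ratios 0.758 (0.599 to 0.956) and 1.06 (0.843 to 1.34). The 8 general endothelial markers summed to 3773 CPM in young ventilated arterial cells and to 4855 to 5763 CPM in the other libraries. In B cells, Pecam1 was lower after ventilation at both ages, with ratios of 0.434 (0.321 to 0.576) from 36 young ventilated cells and 0.699 (0.588 to 0.831) in the aged mice, the latter not past the fold. With thinned cells the young log2 ratio was -0.07, and the summed endothelial markers in these B cells were 249.6 CPM without and 73.0 CPM with ventilation, whose part was not tested. In nonclassical monocytes, the aged ratio was 0.565 (0.522 to 0.612) and the young ratio 0.840 (0.732 to 0.963). Within the Spic cluster, 27 aged nonventilated cells held 692 CPM and 178 aged ventilated cells held 396 CPM.

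Classical monocytes had a young Pecam1 ratio of 5.58 (3.64 to 8.90) and an aged ratio of 1.13 (0.767 to 1.67). A cluster with 3 of the 8 classical monocyte markers detected and a median of 3218.5 UMIs per cell held 93 of the 176 young ventilated cells and 6 of the 100 young nonventilated cells. Its Pecam1 level was 207 CPM in the young ventilated library, and without this cluster the log2 ratio was 1.97 instead of 2.43, and it was 1.14 without upper limits on genes and UMIs per cell. The gene for a Pecam1 ligand, Cd38, was higher after ventilation in the same cells, with 8, 270, 2 and 763 UMIs or 5.51, 174, 1.61 and 455 CPM. Cd38 was also higher in nonclassical monocytes (2, 119, 10 and 377 UMIs) and in interstitial macrophages (83.5, 339, 62.8 and 303 CPM). Of 10 Pecam1 partner genes, 5 had enough UMIs in classical monocytes at each age, and 2 were higher and 0 lower at each age, beside 21.5% and 19.6% of all genes higher in the young and aged classical monocytes. F11r in alveolar macrophages had ratios of 0.828 (0.632 to 1.08) in the young and 0.610 (0.417 to 0.877) in the aged mice.

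**Figure D4:**
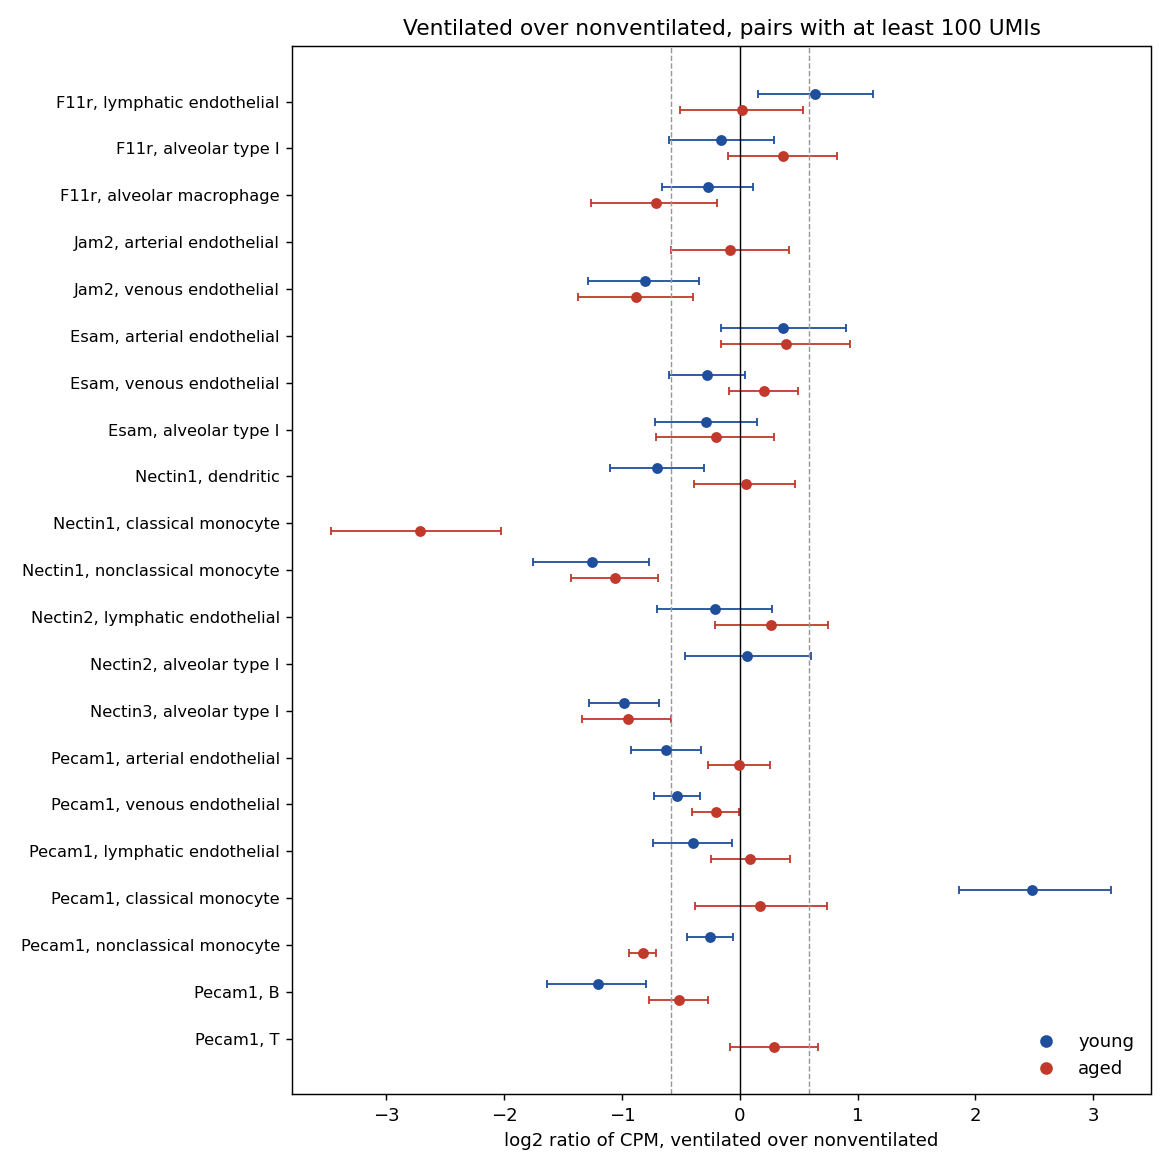
log2 ratio of CPM, ventilated over nonventilated (x axis), for the 21 gene and class pairs beyond the capillaries with at least 100 UMIs (y axis), with exact 95% counting intervals for young (blue) and aged (red) mice, a solid line at 0 and dashed lines at a ratio of 1.5 in either direction. Nectin3 in alveolar type I cells, Nectin1 in nonclassical monocytes and Jam2 in venous cells lie beyond the dashed line on the lower side at both ages, and Pecam1 in classical monocytes lies far above it in the young mice.

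For age, 3 of 20 pairs were past the fold between the nonventilated libraries, all higher in the aged library, beside 14.4% of all genes in either direction, 8.41% higher and 6.04% lower. Pecam1 in nonclassical monocytes was 2.34-fold higher in the aged library (2.11 to 2.60), with 425 UMIs in 142 young cells and 2252 UMIs in 338 aged cells. The share of cells with a Pecam1 UMI was 52.8% (44.3 to 61.2%) in the young and 72.5% (67.4 to 77.2%) in the aged library. The same direction was seen within the Ccdc192 cluster, with 321 CPM in young and 749 CPM in aged cells. In these 2 libraries the Cdh5 UMIs would bring 8.10 and 58.4 Pecam1 UMIs. Jam2 in arteries was 1.61-fold higher (1.08 to 2.46). Pecam1 in T cells was 1.88-fold higher (1.22 to 3.04), and 24 UMIs in 30 cells stood behind the young level. With the highest cell of each library left out, the T cell levels were 82.9 and 178 CPM, and with thinned cells the log2 ratio was 0.08.

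Between the ventilated libraries, 4 of 19 pairs were past the fold with age, 2 higher and 2 lower, beside 17.2% of all genes in either direction, 7.50% higher and 9.66% lower. Pecam1 was again higher in aged nonclassical monocytes (ratio 1.57, 1.40 to 1.77) and also in arteries (1.52, 1.24 to 1.86). Pecam1 in classical monocytes (0.434, 0.322 to 0.580, or a log2 ratio of -0.25 without the upper limits on cells) and F11r in alveolar macrophages (0.640, 0.431 to 0.934) were lower. Over the 12 alternatives that recompute ratios, the F11r log2 ratio ranged from -0.74 to -0.04 and was past the fold in 10. The pairs with Nectin2 and Nectin3 were not past the fold with age, with Nectin3 in alveolar type I cells at ratios of 1.01 (0.842 to 1.21) and 1.03 (0.775 to 1.36). The ventilation and age comparisons share libraries, so they are not independent of each other.

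The genes whose levels over the 21 classes were most like those of each member were found among 11748 genes by Pearson r of log2 (mean CPM + 10). The classes share their libraries, so r is a description. Esam was closest to Slc9a3r2 (r = 0.97), Adgrf5 (0.95) and Dcbld1 (0.94), and Jam2 to Cyp26b1 (0.95), the endothelial selectin gene Sele (0.92) and Apol9a (0.91). Nectin3 was closest to Crip2 and Emp2 (0.93 each) and Clstn1 (0.92), and Nectin2 to Rtkn (0.93), Radil and Ttc9 (0.91 each). Pecam1 was closest to Gbp9 (0.92), Gm4070 and S1pr1 (0.91 each), and Jam3 to Ndn (0.91), Enpp2 and Rasd1 (0.90 each). F11r had weaker neighbors in Sptlc2 (0.86), Als2cl (0.86) and the nectin partner gene Afdn (0.85), and Nectin1 the weakest in Grk3 (0.81), Eps8 (0.79) and Gm36486 (0.70). Among the members themselves, Esam and Nectin3 were the most alike pair (r = 0.77) and Nectin1 and Pecam1 the least (r = -0.27).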

How the data were processed

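Raw UMI counts per gene and barcode, from a 3′ droplet assay, were deposited by the authors. The submitters' processing notes name Cell Ranger 7.0.0 and the mm10 build. Each molecule is counted once whatever the length of its transcript. Barcodes were kept if they had between 200 and 5000 genes, no more than 10% of UMIs from mitochondrial genes and a total up to the 93rd percentile (21021 UMIs), and no doublet caller was run beyond these upper limits. Seurat 5.3.0 in R 4.3.3 clustered them on 2000 variable genes without the 8 members and 37 components at a resolution of 1, and epithelial and endothelial cells again on 20 components at 0.5. Clusters were named from fixed marker lists. The naming rule was set after the clusters were seen, and 16 ciliated barcodes were split from the epithelium. Sums per class were scaled to CPM (Python 3.11.15, numpy 2.4.6, scipy 1.17.1, pandas 2.3.3, figures in matplotlib 3.10.9). log2 ratios had 1 UMI added to each sum, and class contrasts were tested over the 4 libraries. Intervals were checked on simulated data. Depth per library was 40655452 to 45218176 UMIs.

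All 8 members were named in every class of at least 50 cells, with partner genes of fixed lists that passed the fold and, per member, the 3 genes most like it. The members and lists were chosen with earlier results of these data known. The alternatives varied the upper limits, mitochondrial limit, resolution, variable genes, scaling, cell weighting, depth per cell, endothelial RNA, UMI minimum and fold. Another 4 were added after seeing the data.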

Additional observations from a re-analysis of the deposited data

Results flagged for a closer look

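In general capillary endothelial cells, Jam2 went in opposite directions after ventilation at the 2 ages. The level was lower in the young ventilated library (ratio 0.521, 95% counting interval 0.430 to 0.631) and higher in the aged ventilated library (1.27, 1.09 to 1.48), a log2 difference of 1.28 between the ages. The 4 libraries held 66.7, 34.8, 77.0 and 97.8 CPM in the order young nonventilated, young ventilated, aged nonventilated, aged ventilated. In the same cells, Pecam1 had a ratio of 0.818 (0.788 to 0.8499) in the young and 1.08 (1.04 to 1.13) in the aged mice, a log2 difference of 0.40. Both Pecam1 ratios and the aged Jam2 ratio were short of 1.5-fold. The median log2 ratio over all genes of this class was -0.21 in the young and -0.10 in the aged mice. Different clusters held the class, with 518, 5, 456 and 28 cells of the 4 libraries in a cluster led by Glp1r and 4, 601, 4 and 310 in a cluster led by Inhbb. The general endothelial markers summed to 10020.2, 6105, 9565 and 7661 CPM, and their part in these differences was not tested. Each value comes from 1 library per group, and neither difference between the ages was tested.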

How the results depend on the processing

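No paired analysis was possible because each group is 1 library. The numbers of pairs past the fold (8 and 6 after ventilation in the young and aged mice, 3 and 4 with age in the nonventilated and ventilated libraries) stayed within 1.5 times under doubled resolution, members among the variable genes, median-of-ratios scaling, single-cell means, Cdh5 subtraction and the 4 alternatives added after seeing the data. At 1000 UMIs per cell they were 0, 1, 1 and 0, and 573 cells below that depth were left out. Fewer pairs reach 100 UMIs at that depth, and how far this lowered the numbers was not tested. Of 77 log2 ratios at that depth, 32 moved, 1 reversed and 44 stayed the same. The thinned ratios rest on fewer UMIs, and the part of counting error in these shifts was not tested. Of 45 levels, 15 moved. A ratio of at least 2 gave 3, 2, 1 and 1. A minimum of 40 UMIs gave 16 in the young mice and 9 and 9 with age. Without the upper limits on genes and UMIs, 11 pairs passed in the aged mice and 8 with age in the nonventilated libraries. With at most 5% mitochondrial UMIs, 1 passed with age in the nonventilated libraries. The cause of the last 2 shifts was not tested. Of the 21 calls, 20 kept their direction in the 12 alternatives that recompute ratios. F11r in young lymphatic cells reversed at 1000 UMIs per cell (log2 -0.17). Past the fold in all 12 were 8 calls. Pecam1 in B cells of the young mice had a log2 ratio of -0.07 with thinned cells and Pecam1 in T cells with age 0.08. Without the upper limits, Jam2 in veins stood at -0.57 and -0.54, short of the fold, and Pecam1 in classical monocytes of the young mice at 1.14 (with age in the ventilated libraries at -0.25). Depth limits the comparisons, since at most 20 of 112 pairs reached 100 UMIs.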

Other observations

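Stromal cells carried several of these genes as well. Pericytes, the contractile cells around capillaries, held Esam at 94.4, 156, 85.0 and 213 CPM (young nonventilated, young ventilated, aged nonventilated, aged ventilated). The ratio of ventilated to nonventilated was 1.65 (1.16 to 2.36) in the young and 2.51 (1.73 to 3.68) in the aged mice. Pericytes held 7.43 times the Esam UMIs that came with their Cdh5 UMIs, whereas their Pecam1 UMIs were below that amount. Jam3 in pericytes was higher after ventilation as well, from few UMIs, with ratios of 2.22 (1.20 to 4.32) and 2.27 (1.13 to 4.76). Nectin1 in pericytes held 17.0-fold the level of alveolar fibroblasts, in 4 of 4 libraries.

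Jam2 was found in alveolar fibroblasts at 37.03, 10.8, 33.0 and 25.2 CPM, with ventilated to nonventilated ratios of 0.291 (0.209 to 0.402) in the young and 0.764 (0.548 to 1.06) in the aged mice. Different clusters held these fibroblasts, with 224, 0, 179 and 2 cells of the 4 libraries in a cluster led by Fat3 and 7, 380, 0 and 176 in a cluster led by Cemip. Their own markers summed to 15549, 5276, 14366 and 7006 CPM, and their part in the Jam2 difference was not tested. In adventitial fibroblasts the 4 libraries held 55, 1, 51 and 3 Jam2 UMIs in 124, 42, 107 and 30 cells. The levels were 30.1, 1.65, 32.7 and 7.18 CPM. Smooth muscle held Esam at 49.0, 31.7, 96.8 and 74.6 CPM.

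On the leukocyte side of these contacts, genes of integrin chains that bind junctional adhesion molecules were counted in neutrophils. Itgal held 573, 347, 652 and 354 CPM and Itga4 537, 96.8, 365 and 91.5 CPM, so both were lower in both ventilated libraries. Of the 6 integrin genes, 5 had enough UMIs in neutrophils, and 3 were lower in the young and 2 in the aged mice, beside 33.6% and 30.6% of all genes lower in neutrophils. The median log2 ratio over all neutrophil genes was -0.23 in the young and -0.19 in the aged mice. The integrin genes are therefore not read as a group. Jaml, another gene of the junctional adhesion molecule family, held 379, 187, 312 and 220.3 CPM in neutrophils. Different clusters held most neutrophils, since a cluster led by Cstdc4 and Retnlg held 5, 198, 9 and 234 cells of the 4 libraries.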
